A study of Mus musculus with 88 samples.

Results

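Proteoglycans, tenascins and perineuronal net genes were followed in the mouse cortex before and after a focal impact. The group holds 10 genes, taken by symbol from the 54532 genes of the deposited count table: the lecticans Acan, Bcan, Ncan and Vcan, the membrane-bound proteoglycans Cspg5 and Ptprz1, the tenascins Tnr and Tnc, the link protein gene Hapln1 and the hyaluronan synthase gene Has2. All 10 were found, each as 1 identifier. The study asked how cortical gene expression of female and male mice responds to traumatic brain injury. C57BL/6J mice, bought at 7 weeks of age, received 1 controlled cortical impact at 8 to 9 weeks above the right somatosensory cortex (a piston of 2 mm entering 1 mm deep at 6.0 m/s for 100 ms, through a 3 mm craniotomy), or were left naive.

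Brain punches of 4 mm were taken after perfusion at 24 h (7 females and 8 males) or 72 h (9 females and 7 males) after impact, and from naive mice (7 females and 6 males). In each mouse 1 punch came from the impact site (ipsilateral) and 1 from the opposite cortex (contralateral). In naive mice the right punch is the one labelled ipsilateral. Every injured mouse also had isoflurane, the craniotomy and buprenorphine at 0.05 mg/kg, and no group had these without the impact, so surgery and impact cannot be told apart. Of 88 libraries from 44 mice 87 were compared, since 1 ipsilateral library at 72 h is labelled female while the other library of its animal (PM1) is labelled male.

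Lecticans are secreted chondroitin sulfate proteoglycans that bind hyaluronan at one end and tenascins at the other. Link proteins clamp the lectican to the hyaluronan chain, and tenascin-R crosslinks several lecticans. Together they form the general brain matrix and its dense variant, the perineuronal net, which wraps mainly parvalbumin interneurons in the cortex. Chondroitin sulfate proteoglycans are also known as part of the scar matrix around brain lesions, where they limit axon growth.

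At 24 h the injured cortex had more Tnc, Has2 and Acan and less Bcan, Cspg5, Hapln1 and Ptprz1 than naive cortex, so 7 of the 10 genes passed an adjusted p of 0.05. The same threshold called 43% of all 19126 genes tested in that comparison, so a count of 7 says little about these genes as a group. At 72 h 7 of 10 again passed, against 48.5% of all genes: Tnc, Has2, Vcan, Ptprz1 and Ncan were higher and Bcan and Cspg5 lower than naive. Between 24 and 72 h 6 genes rose in the injured cortex (Ncan, Vcan, Ptprz1, Tnc, Hapln1 and Has2) and none fell, with 37% of all genes called. Changes are given as log2 fold changes ± standard error, averaged over both sexes, from edgeR's quasi-likelihood test with Benjamini-Hochberg adjustment over all genes tested. In bulk punches, fewer cells of a type and less RNA per cell cannot be told apart. Replicates are separate mice, each with a labelled batch.

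**Figure D1:**
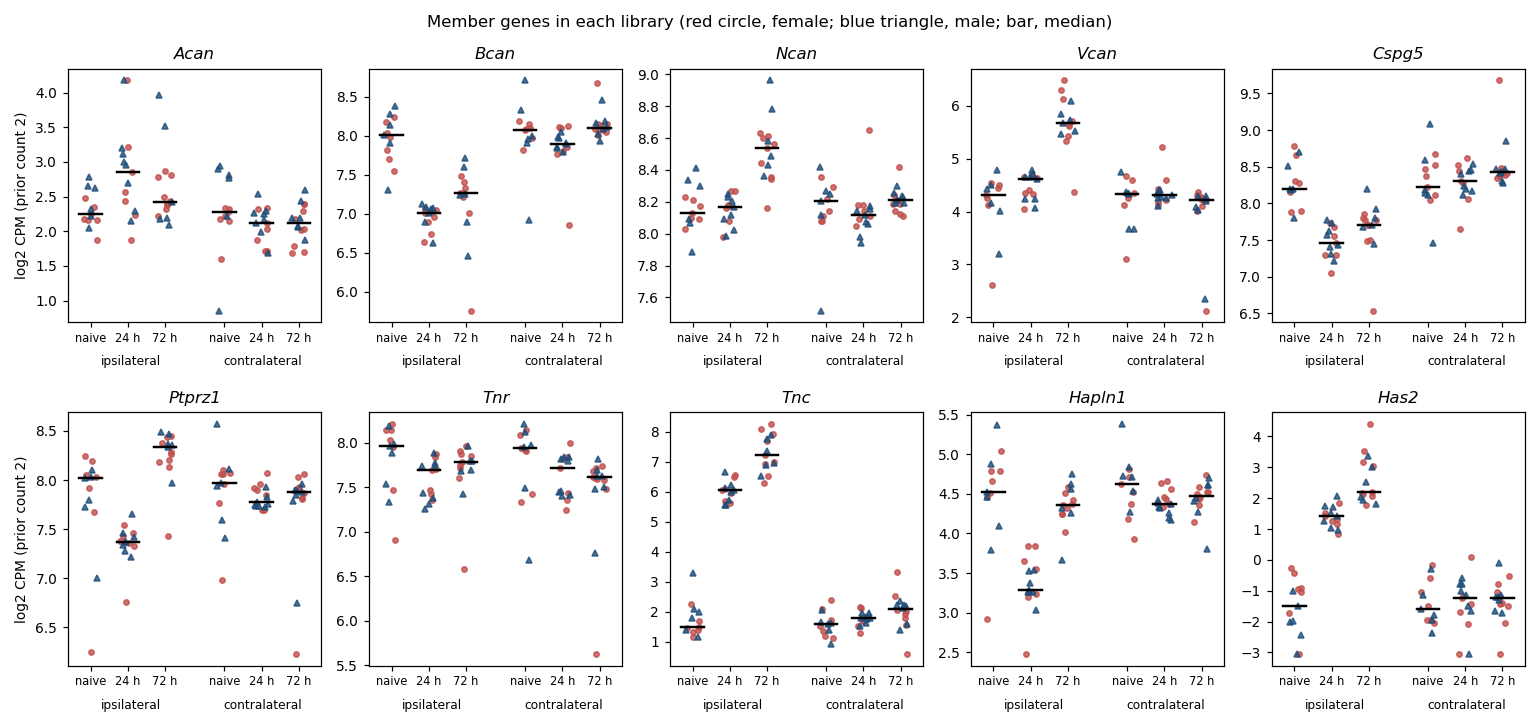
Level of each of the 10 genes in every library, as log2 CPM (each library's counts scaled to the same total, with a prior count of 2; vertical axes differ between panels), by side and time; points are libraries of females (circles) and males (triangles) and bars are medians. Tnc and Has2 of all 30 injured ipsilateral libraries lie above all 13 naive ones, and Vcan, Ptprz1 and Hapln1 are higher at 72 h than at 24 h.

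Some libraries stood apart before any comparison. In each library, the deviation of 11065 other genes from their mean was set against their exon length, and the slope of that line was used as a sign of RNA quality. It ran from 0.01 to 0.256 in labelled batch A, from -0.713 to 0.172 in batch B and from -0.077 to 0.044 in batch C. Lower values mean that long transcripts were short of reads. Naive and 24 h mice make up batch A, 72 h mice alone batch C, and batch B has every time, so 72 h against naive rests on batch B. The 4 naive ipsilateral libraries of batch B had slopes of -0.189 to -0.016, below the 8 at 24 h of the same batch by median (-0.123 against -0.022). The 7 libraries under -0.15 came from animals KF3, KM2, KM3, LF3 and LM2, and the comparisons were repeated without these 5 animals and with the slope as a covariate. Without them 1 naive animal is left in batch B. Both repeats were chosen after the data were seen. The slope also differed by side: in batch C at 72 h it was -0.077 to -0.005 in 10 ipsilateral and -0.003 to 0.044 in 10 contralateral libraries. In naive batch A libraries the medians were 0.075 and 0.097, with overlapping ranges. The slope may thus hold part of the injury change as well as RNA quality, and the covariate cannot separate them. Their shares were not tested.

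Levels of 6 of the 10 genes followed this slope in the 26 libraries of the 13 naive mice: Tnr, Ptprz1, Hapln1 and Vcan were lower where it was low (r from 0.787 to 0.934), and Cspg5 (r = -0.953) and Bcan (r = -0.847) were higher. Acan (-0.39), Ncan (-0.466), Tnc (0.178) and Has2 (0.24) had weaker relations. These r values are descriptions, since both libraries of a mouse are in them. In the naive ipsilateral library of KF3 (slope -0.189), Vcan was at 5.96 CPM, Ptprz1 at 75.9 and Hapln1 at 7.47, each the lowest of 13, and Cspg5 was at 439.7, the highest. In the contralateral library of LF3 at 72 h (slope -0.713), Tnr was at 49.2 and Ptprz1 at 74.7 CPM, the lowest of 16, and Cspg5 was at 821.4, the highest. Bcan also stood high there, at 409.0 CPM. The ipsilateral library of LF3 (slope -0.392) went the other way for Cspg5 (92.7 CPM) and Bcan (53.9 CPM), the lowest of all ipsilateral libraries. Tnr (96.1 CPM) and Ptprz1 (172.6 CPM) were low there too, the lowest of the 15 ipsilateral libraries at 72 h. How much of any result comes from RNA quality was not tested beyond the 2 repeats, whose values stand beside each call that they change. A further check found that the ipsilateral library of PF1, labelled female, holds male transcripts (Xist at 0.112 CPM and Ddx3y at 60.2). The contralateral library of PF1 holds female ones (Xist at 485.4 CPM), and so does the ipsilateral library of PM1 that was not compared (Xist at 489.4). Whether these ipsilateral libraries were exchanged was not tested. PF1 was kept as labelled, so its pair, counted in the within-animal results, may join different mice. Leaving PF1 out changed the call of 1 value, given with Has2.

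**Figure D2:**
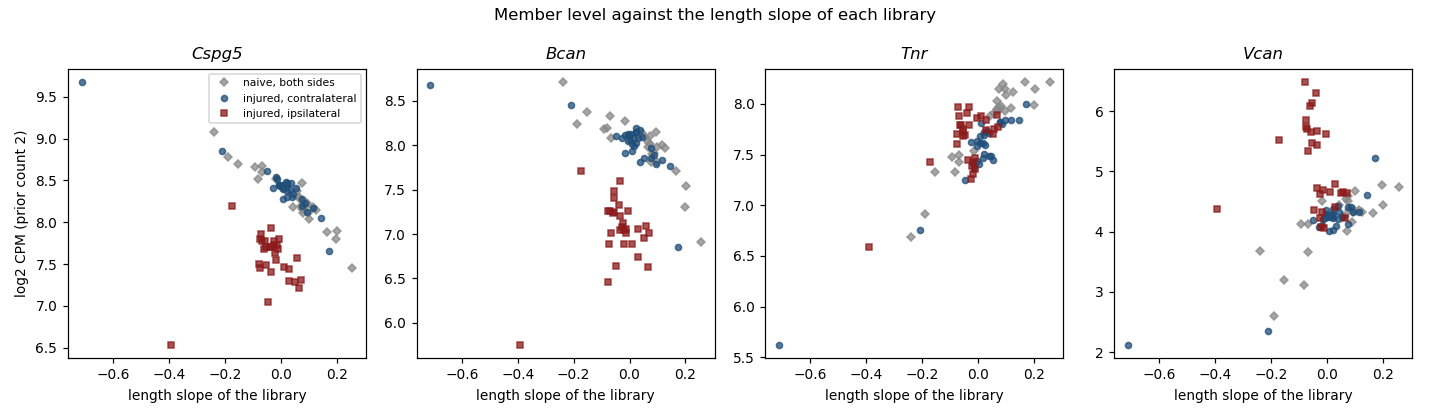
Level of Cspg5, Bcan, Tnr and Vcan (log2 CPM, prior count of 2) against the length slope of each library (horizontal axis, no unit), with naive libraries as diamonds, injured contralateral ones as circles and injured ipsilateral ones as squares. At the far left, the contralateral library of LF3 (slope -0.713) holds the highest Cspg5 (821.4 CPM) and the lowest Tnr (49.2 CPM) of all libraries.

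In naive ipsilateral cortex the genes covered a wide range of levels per length of transcript. Bcan was the highest at 62.6 ± 12.4 CPM per kilobase of exon (SD, n = 13). Ncan followed at 39.9 ± 3.89 and Cspg5 at 31.4 ± 6.94, and the spreads of these 2 genes met. Tnr (18.2 ± 4.35) and Ptprz1 (16.2 ± 4.55) did not differ beyond their spread. Below them came Hapln1 (4.06 ± 1.44), Vcan (1.30 ± 0.403), Acan (0.660 ± 0.124), Tnc (0.451 ± 0.259) and Has2 (0.0659 ± 0.0536). At 72 h in the injured cortex Ncan was the highest (51.6 ± 7.16, n = 15), and Tnc came after Bcan (22.0 ± 9.32), beside Ptprz1 (21.7 ± 3.39).

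Stretches of 250 bases upstream of the RefSeq start are shown for 4 genes with different courses: Tnc, which rose at both times, Bcan, which was low at both, Ptprz1, which fell and then rose above naive, and Vcan, which rose at 72 h. Promoters of 8 of the 10 genes were found in the RefSeq table (build GRCm38.p6). Those of Ncan and Hapln1 overlap an annotated exon and are not shown. A set of 6 motifs was searched on both strands: TGANTCA (AP-1), TTCNNNGAA (STAT), the NF-kB motif, TGACGTCA (CRE), TATAAA (the box named after it) and GGGCGG (SP1). Matches are in capitals, and the rest is in lower case, 5′ to 3′ on the strand of the gene.
Tnc (chr4:64047016-64047265, minus strand): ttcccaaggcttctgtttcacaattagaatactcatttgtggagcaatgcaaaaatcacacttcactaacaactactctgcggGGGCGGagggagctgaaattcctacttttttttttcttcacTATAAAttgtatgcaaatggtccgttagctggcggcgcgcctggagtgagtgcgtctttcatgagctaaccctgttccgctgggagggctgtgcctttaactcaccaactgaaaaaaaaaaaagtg
Bcan (chr3:88000357-88000606, minus strand): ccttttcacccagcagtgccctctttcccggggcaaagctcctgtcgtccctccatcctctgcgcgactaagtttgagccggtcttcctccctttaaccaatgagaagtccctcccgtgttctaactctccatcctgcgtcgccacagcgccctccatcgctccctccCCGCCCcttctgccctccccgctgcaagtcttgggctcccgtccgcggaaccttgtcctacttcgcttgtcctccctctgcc
Ptprz1 (chr6:22875252-22875501, plus strand): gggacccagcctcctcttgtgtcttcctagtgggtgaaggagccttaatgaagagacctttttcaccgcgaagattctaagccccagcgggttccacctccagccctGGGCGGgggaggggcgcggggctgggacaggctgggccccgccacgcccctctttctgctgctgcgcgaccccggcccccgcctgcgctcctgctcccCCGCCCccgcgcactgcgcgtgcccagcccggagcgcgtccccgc
Vcan (chr13:89742513-89742762, minus strand): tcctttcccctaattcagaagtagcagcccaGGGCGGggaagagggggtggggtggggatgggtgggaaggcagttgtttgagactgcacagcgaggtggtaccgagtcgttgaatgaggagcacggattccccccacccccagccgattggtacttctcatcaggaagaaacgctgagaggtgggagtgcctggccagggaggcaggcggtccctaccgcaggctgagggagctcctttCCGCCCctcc
Tnc is the only one of the 4 with a TATAAA, a word that 12.4% of 32851 promoters of this length hold. All 4 hold GGGCGG or its complement, as do 32.7% of promoters, with 1 match each in Tnc and Bcan and 2 each in Ptprz1 and Vcan. None of the 4 windows has the AP-1 word (6.75% of promoters), the STAT word (7.02%), the NF-kB word (17.6%) or the CRE word (1.55%). This says only that these letters are not in these windows.

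Tnc encodes tenascin-C, a glycoprotein of developing and wounded tissue that healthy cortex holds little of. Tnc was at 2.11 to 9.64 CPM in naive ipsilateral libraries (median 2.66, n = 13). At 24 h the ipsilateral libraries had 46.6 to 101.9 CPM (median 66.5, n = 15), and at 72 h 78.1 to 309.9 (median 150.9, n = 15). No injured ipsilateral library overlapped with a naive one, and 12 of the 15 at 72 h were above all 15 at 24 h. The change was 4.28 ± 0.22 at 24 h (19.4-fold, adjusted p = 1.19e-19) and 5.06 ± 0.29 at 72 h (33.3-fold, adjusted p = 7.09e-18), and from 24 to 72 h 0.78 ± 0.24 (adjusted p = 0.0101). The rise from 24 to 72 h did not pass in males alone (0.75, adjusted p = 0.0599). Contralateral libraries stayed between 1.37 and 9.87 CPM. Within animals, Tnc was higher on the injured side in 15 of 15 mice at 24 h and 15 of 15 at 72 h.

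Has2 makes the high molecular weight hyaluronan that lecticans bind. Its counts were low: 60 reads over the 13 naive ipsilateral libraries, 696 over the 15 at 24 h and 1806 over the 15 at 72 h. Naive ipsilateral libraries had 0 to 0.722 CPM (median 0.236), and 2 of 13 had no read. At 24 h the level was 1.68 to 4.07 CPM (median 2.54), and at 72 h 3.28 to 21.2 (median 4.50). The groups of injured and naive libraries did not overlap, while 5 of the 15 libraries at 72 h lay within the range of 24 h. The log2 fold change against naive was 3.42 ± 0.32 at 24 h (10.7-fold, adjusted p = 1.25e-11) and 4.26 ± 0.42 at 72 h (adjusted p = 5.92e-11). In males alone the rise from 24 to 72 h was 0.59 (adjusted p = 0.313). Over both sexes it was 0.85 ± 0.34 and passed narrowly (adjusted p = 0.0450). That call was lost when any 1 of 9 libraries was left out (0.64 at the lowest, without LM2), and also without the 5 animals of low slope (0.51, adjusted p = 0.371) and with the slope as a covariate (0.76, adjusted p = 0.136). Has2 lies opposite the antisense gene Has2os on chromosome 15, and whether the counting used strand is not given in the sources used here, so reads of both may be mixed: Has2os itself held 183 reads in all libraries against 2853 for Has2.

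Vcan encodes versican, a large lectican of embryonic and scar matrix and of oligodendrocyte precursors. Naive ipsilateral libraries had 5.96 to 27.3 CPM (median 19.6, n = 13), those at 24 h 16.5 to 27.5 (median 24.5) and those at 72 h 20.7 to 89.5 (median 50.7). At 72 h 14 of 15 libraries were above all naive ones, and the exception was LF3 at 20.7 CPM, whose slope of -0.392 was the lowest of the ipsilateral libraries. At 24 h the change of 0.35 ± 0.15 missed the threshold (adjusted p = 0.0589), which it passed with DESeq2 (0.35, adjusted p = 0.0435), with the slope as a covariate (0.39, adjusted p = 0.0110) and when 1 of 4 libraries was left out. At 72 h Vcan was 1.45 ± 0.22 above naive (2.73-fold, adjusted p = 9.03e-07) and 1.10 ± 0.20 above 24 h (adjusted p = 3.50e-05). Vcan overlaps the antisense gene Gm4117, so its reads may hold some of that gene.

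Ncan encodes neurocan, a lectican of the brain. The 15 libraries at 24 h (252.3 to 308.4 CPM, median 287.6) overlapped the 13 naive ones (235.9 to 340.0, median 279.8), and the change was -0.01 ± 0.06 (adjusted p = 0.887). At 72 h the range was 286.0 to 499.1 CPM (median 370.9), with 11 of 15 libraries above all naive ones. The increase was small, 0.35 ± 0.09 against naive (1.27-fold, adjusted p = 0.00143) and 0.36 ± 0.08 against 24 h (adjusted p = 0.000758). The highest value, 499.1 CPM, belonged to TM2, a male of batch C.

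Bcan encodes brevican, the most abundant lectican of adult brain, in soluble and membrane-anchored forms. Bcan was at 158.3 to 333.0 CPM in naive ipsilateral libraries (median 257.9). All 15 at 24 h lay below all naive ones, at 98.8 to 139.5 CPM (median 129.0). At 72 h the spread was wider, 53.9 to 209.3 CPM (median 153.2), and 10 of 15 libraries were below every naive one. The log2 fold change against naive was -1.08 ± 0.11 at 24 h (adjusted p = 1.97e-10) and -1.10 ± 0.18 at 72 h (adjusted p = 2.60e-06). From 24 to 72 h the fitted change, with the batch term, was -0.01 ± 0.16 (adjusted p = 0.956), although 11 of 15 libraries at 72 h lay above all of 24 h and 2 below all. The lowest library at 72 h was again LF3.

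Acan encodes aggrecan, a defining component of perineuronal nets and the main proteoglycan of cartilage. In naive ipsilateral cortex Acan was at 3.54 to 6.76 CPM (median 4.63). At 24 h 8 of 15 libraries were above all naive ones, in a range of 3.55 to 18.0 CPM (median 7.07). At 72 h the range was 4.13 to 15.5 CPM (median 5.23), with 5 of 15 above. The change was 0.71 ± 0.21 at 24 h (adjusted p = 0.00561) and 0.21 ± 0.33 at 72 h (adjusted p = 0.616), and the difference between the times was -0.50 ± 0.32 (adjusted p = 0.218). There were 4 libraries over 10 CPM: FF3 (17.9) and RM2 (18.0) at 24 h and TM2 (15.5) and TM1 (11.3) at 72 h. Leaving out single libraries moved the 24 h change between 0.50 and 0.77 without ending the call. In batch A alone it was 0.92 (adjusted p = 0.00110) and in batch B alone 0.40 (adjusted p = 0.469). In males alone the 24 h change did not pass (0.66, adjusted p = 0.0966).

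Because the punch lies under a craniotomy, 5 cartilage genes were looked at after these values were seen. Their summed level in the 4 libraries was 4.73, 3.36, 2.63 and 6.17 CPM, in the order FF3, RM2, TM2 and TM1. Ipsilateral sums were 0.975 to 13.6 CPM in naive libraries (median 1.83), 2.07 to 5.21 at 24 h (median 3.36) and 2.63 to 9.25 at 72 h (median 5.59), so the medians were higher after injury and TM2 was the lowest of its group. Pvalb, the parvalbumin gene, was at 57.5, 42.1, 51.7 and 45.1 CPM in the same libraries. Against naive, Pvalb changed by -0.28 ± 0.19 at 24 h (adjusted p = 0.262) and by 0.65 ± 0.30 at 72 h (adjusted p = 0.0684). Of 6 markers of parvalbumin interneurons 3 were lower and none higher at 24 h (Kcnc1, Kcnc2, Tac1), and 3 were lower at 72 h (Kcnc1, Kcnc2, Syt2). Since 43% of all genes were called at 24 h and 48.5% at 72 h, these counts say little about the list. The summed level of the 6 markers was 640.7 to 880.1 CPM in naive ipsilateral libraries, 520.6 to 815.7 at 24 h and 312.2 to 812.8 at 72 h. The part of cartilage and interneuron markers in the Acan values was not tested.

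Cspg5 encodes neuroglycan C, a membrane proteoglycan of neurons and glia. The 15 libraries at 24 h, with 132.3 to 219.5 CPM (median 176.1), were all below the 13 naive ones, which had 223.3 to 439.7 (median 294.5). At 72 h the range was 92.7 to 292.5 CPM (median 209.1), and 11 of 15 lay below all naive ones. Cspg5 fell by 0.89 ± 0.09 at 24 h (adjusted p = 1.69e-10), and its change at 72 h was -0.81 ± 0.14 (adjusted p = 1.09e-05). Without the 5 animals of low slope it was -0.60 at 72 h (adjusted p = 0.000754). Cspg5 overlaps the opposite-strand gene Gm43622, which held 4186 reads against 411559.

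Ptprz1 encodes a receptor tyrosine phosphatase that carries chondroitin sulfate, binds tenascins and pleiotrophin and is expressed in astrocytes and oligodendrocyte precursors. Naive ipsilateral libraries had 75.9 to 302.1 CPM (median 258.8), those at 24 h 108.1 to 201.3 (median 165.6) and those at 72 h 172.6 to 360.3 (median 322.6). At 72 h 14 of 15 libraries were above all 15 at 24 h. Ptprz1 fell by 0.36 ± 0.11 at 24 h (adjusted p = 0.00726), stood 0.68 ± 0.17 above naive at 72 h (adjusted p = 0.000755), and rose by 1.05 ± 0.15 between the times (adjusted p = 5.20e-07). The fall at 24 h differed between batches: the change was -0.57 in batch A (adjusted p = 3.08e-06) and -0.04 in batch B (adjusted p = 0.933), where the naive libraries had the low slopes. It was -0.53 without the 5 animals of low slope (adjusted p = 2.43e-07). In females alone (-0.39, adjusted p = 0.0528) and in males alone (-0.33, adjusted p = 0.0982) the 24 h change did not pass. Ptn, the gene of its ligand pleiotrophin, fell by 1.08 ± 0.08 at 24 h (adjusted p = 5.72e-15) and its 72 h value did not pass (0.02 ± 0.12, adjusted p = 0.912).

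Tnr encodes tenascin-R, which is made by oligodendrocytes and some interneurons and crosslinks lecticans in nets. Its ipsilateral levels overlapped throughout: 120.1 to 297.6 CPM in naive libraries (median 250.2), 153.5 to 237.0 at 24 h (median 207.3) and a lowest of 96.1 with a median of 221.2 at 72 h. The change against naive was -0.12 ± 0.08 at 24 h (adjusted p = 0.244) and 0.13 ± 0.13 at 72 h (adjusted p = 0.425), and between the times 0.25 ± 0.11 (adjusted p = 0.0840). These calls depended on the libraries used. In batch A alone, Tnr was lower at 24 h by test (-0.26, adjusted p = 0.00164), and in batch B it was at 0.07 (adjusted p = 0.842). Without the 5 animals of low slope it was -0.21 at 24 h (adjusted p = 0.00196), 0.26 at 72 h (adjusted p = 0.0241) and 0.47 between the times (adjusted p = 1.60e-05). With the slope as a covariate it was 0.34 at 72 h (adjusted p = 0.00106) and 0.45 between the times (adjusted p = 2.52e-05). Without LF3 alone, the 72 h change was 0.27 (adjusted p = 0.0232) and that between the times 0.40 (adjusted p = 0.00069).

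Hapln1 encodes the link protein that stabilizes the bond between lecticans and hyaluronan in nets and cartilage. Naive ipsilateral libraries had 7.47 to 41.0 CPM (median 22.9), those at 24 h 5.44 to 14.2 (median 9.60) and those at 72 h 12.6 to 26.8 (median 20.3). At 72 h 14 of 15 libraries were above all of 24 h, and all 15 lay within the naive range. Hapln1 fell by 1.05 ± 0.14 at 24 h (adjusted p = 3.80e-08) and rose by 1.35 ± 0.18 from 24 to 72 h (adjusted p = 2.46e-07). Against naive the 72 h value was 0.30 ± 0.21 (adjusted p = 0.239). With the slope as a covariate it was 0.56 (adjusted p = 0.0253), and without the 5 animals of low slope -0.06 (adjusted p = 0.865). In batch B alone the 24 h change was -0.68 (adjusted p = 0.0515).

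**Figure D3:**
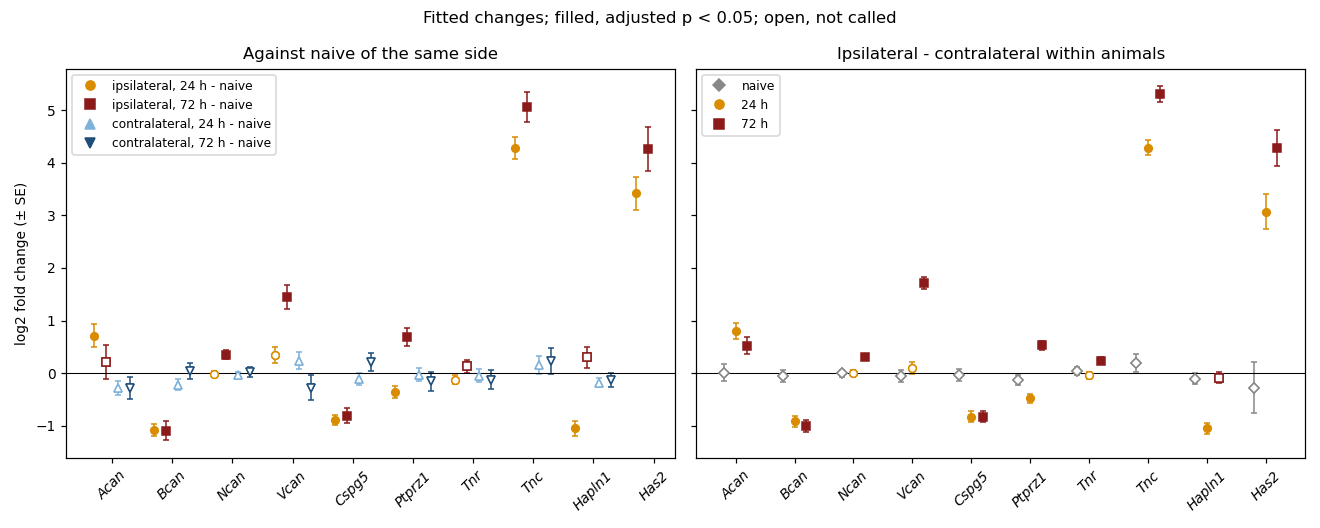
Fitted log2 fold changes ± SE of each gene against naive mice of the same side (left) and between the sides within animals (right); filled symbols passed an adjusted p of 0.05. Tnc and Has2 reach 3.07 to 5.31 on the injured side, Bcan and Cspg5 lie near -1, and the contralateral and naive symbols lie near 0 and are open.

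The opposite cortex gave a measure from the same animals. In naive mice no gene differed between right and left: 0% of 19946 genes were called, 574 had an unadjusted p under 0.05, and none of these 574 was a member. The members' differences ran from -0.27 ± 0.49 (Has2) to 0.19 ± 0.17 (Tnc). At 24 h 7 of the 10 genes differed between the sides (47.7% of all genes): Tnc (4.29 ± 0.14), Has2 (3.07 ± 0.33) and Acan (0.79 ± 0.15) were higher on the injured side. Hapln1 (-1.05 ± 0.10), Bcan (-0.92 ± 0.11), Cspg5 (-0.83 ± 0.10) and Ptprz1 (-0.48 ± 0.08) were lower there, each in 15 of 15 mice. Vcan did not pass at 24 h (0.09), but did with the slope as a covariate (0.23, adjusted p = 0.0317). At 72 h 9 of 10 differed (61.7% of all genes). Tnc (5.31 ± 0.15), Has2 (4.28 ± 0.33), Vcan (1.71 ± 0.11), Ptprz1 (0.53 ± 0.08), Acan (0.52 ± 0.16), Ncan (0.30 ± 0.06) and Tnr (0.23 ± 0.07) were higher, and Bcan (-1.01 ± 0.11) and Cspg5 (-0.83 ± 0.11) lower.

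Within animals the direction was mostly uniform. Vcan and Ptprz1 were higher on the injured side in 15 of 15 mice at 72 h, Ncan in 14, Tnr in 13 and Acan in 11. Hapln1 was higher in 6 of 15 (-0.09 ± 0.10, adjusted p = 0.459). The side difference itself moved between 24 and 72 h for 6 of 10 genes, with 35.4% of all genes called: Vcan (1.62 ± 0.16), Tnc (1.02 ± 0.19), Ptprz1 (1.00 ± 0.12), Hapln1 (0.95 ± 0.15), Ncan (0.30 ± 0.08) and Tnr (0.27 ± 0.09) all moved upward. In batch B alone 4 of 10 did, with 1967 of 19434 genes called. Ncan (0.32, adjusted p = 0.199) and Tnr (0.50, adjusted p = 0.108) did not pass there. Tnr also missed in females alone (0.26, adjusted p = 0.131) and in males alone (0.29, adjusted p = 0.138). Ncan missed in males alone (0.30, adjusted p = 0.0741). Has2 moved by 1.21 ± 0.51 (adjusted p = 0.0601), by 1.30 without PF1 (adjusted p = 0.0458) and by 1.22 with the slope as a covariate (adjusted p = 0.0480). Acan, Bcan and Cspg5 did not pass, with the Cspg5 difference at 0.00 ± 0.15. In batch B alone the 72 h side difference of Acan (0.29, adjusted p = 0.428) and of Ncan (0.28, adjusted p = 0.0775) did not pass. That of Tnr did not pass in males alone (0.23, adjusted p = 0.0647).

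**Figure D4:**
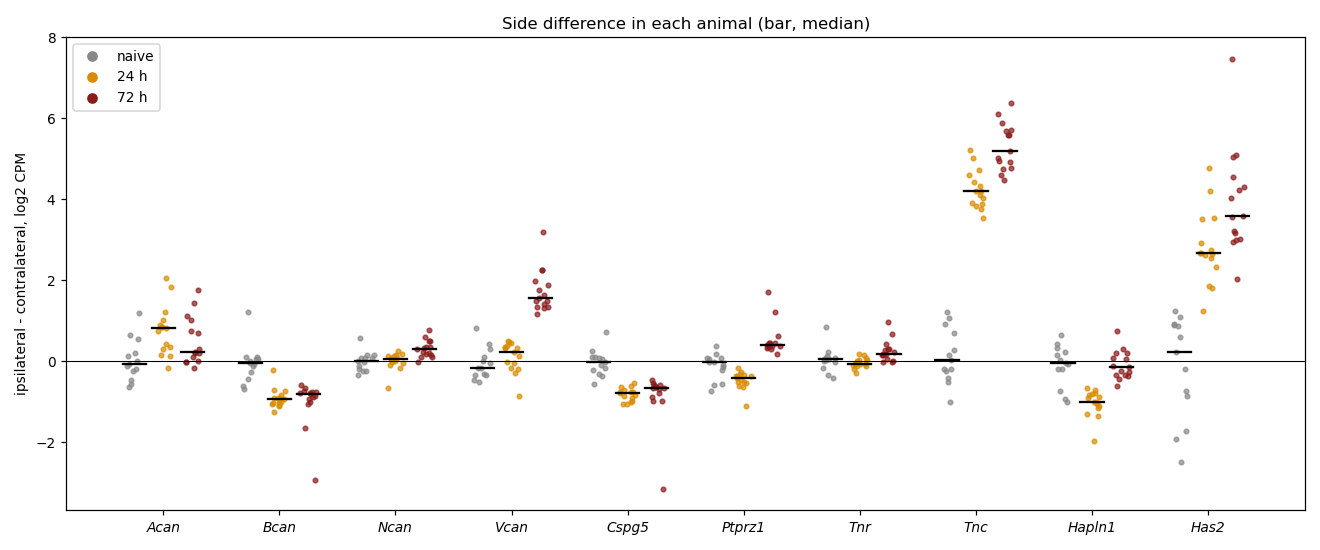
Ipsilateral minus contralateral level (log2 CPM, prior count of 2) of each gene in each animal at naive, 24 h and 72 h, with bars at the median. Each point is 1 mouse as labelled. Bcan and Cspg5 lie below 0 in all 15 mice at both times, and Ptprz1 is below 0 in all 15 mice at 24 h and above 0 in all 15 at 72 h.

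In the contralateral cortex none of the 9 genes tested differed from naive, at 24 h (2.1% of 18436 genes called) or at 72 h (0.26%), and Has2 was too low there to be tested. At an unadjusted p under 0.05 there were 3 of 9 members at 24 h and 0 at 72 h, beside 2506 and 3047 of all 18436 genes. DESeq2 called 0 and 0 members. The 3 were Acan (-0.28 ± 0.14), Bcan (-0.22 ± 0.11) and Hapln1 (-0.18 ± 0.09). The 95% intervals at 24 h reached from -0.563 for Acan at the lowest to 0.563 for Vcan at the highest. The 72 h comparison was less precise, with a median standard error of 0.18 over all genes against 0.12 at 24 h. Without the 5 animals of low slope, Hapln1 (-0.32, adjusted p = 0.0146) and Ptprz1 (-0.23, adjusted p = 0.0296) were lower at 24 h, and with the slope as a covariate Tnr was (-0.16, adjusted p = 0.0261).

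No member had a sex-by-injury term past the threshold at 24 h or 72 h. In edgeR's test 0% of 19126 genes had one at either time, 299 and 580 had an unadjusted p under 0.05, and DESeq2 called 1 and 0. The largest member term was that of Has2 at 24 h, -1.38 ± 0.66 as females minus males (unadjusted p = 0.0431, adjusted p = 1, 95% interval -2.72 to -0.039). Its naive level was 0.385 ± 0.245 CPM in 7 females and 0.155 ± 0.133 in 6 males (SD), from 44 and 16 reads. At 24 h the Tnc change was 4.60 ± 0.30 in females against 3.96 ± 0.30 in males, and the term was 0.63 ± 0.38 (95% interval -0.146 to 1.42). Between naive females and males 0 of 10 members differed (0.0366% of all genes called), and Has2 had an unadjusted p of 0.0388. DESeq2 called 3 genes there, none of them a member.

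Members also varied together within groups. Over 43 ipsilateral libraries, after the mean of each group and batch was taken out, 2 of 45 pairs passed a two-sided permutation test (100000 resamples within group and batch, adjusted over 45 pairs, with 1e-05 the smallest p they can give). Bcan and Cspg5 had r = 0.858 (adjusted p = 0.00045) and rho = 0.785 (adjusted p = 0.0009), and r = 0.806 without the 2 libraries farthest from the median. For Ptprz1 and Hapln1 r was 0.685 (adjusted p = 0.00698) and rho 0.547 (adjusted p = 0.0502), and r was 0.525 without the 2 farthest. Over 44 contralateral libraries 21 of 45 pairs passed, and 12 did so without the 5 animals of low slope. There Cspg5 and Tnr went opposite ways (r = -0.881, adjusted p = 0.0003; -0.829 without the 5 animals). Libraries share a batch and an RNA quality, and the members share a normalization, so these values describe libraries.

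Across all 87 libraries, the genes whose log2 CPM was most like each member's were sought among 14019 genes with a mean of at least 1. These correlations take in the group differences and the slope of the libraries, and are given as descriptions. Tnc was nearest to Msn (r = 0.979) and Hmox1 (0.978), and Has2 to the same 2 (0.929 and 0.925). Bcan was nearest to Dgkz (0.950) and then to Cspg5 (0.942), and Cspg5 to Lhx2 (0.952) and Flot2 (0.947). Vcan was nearest to Itga1 (0.932) and Rdx (0.926), Ptprz1 to Rgs5 (0.895) and Prex2 (0.885), and Tnr to Nsd1 (0.898) and Ptar1 (0.888). For Hapln1 the nearest were Bmpr1b (0.844) and Hmcn1 (0.835). Ncan (Sipa1, 0.728, and Pld2, 0.727) and Acan (Tgfb1i1, 0.722, and Actn1, 0.687) had no gene as near.

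The companion genes of the same matrix are given by list. In the same comparisons 43% of all genes were called at 24 h and 48.5% at 72 h. A list's count near these shares says little about that list as a group. Of 20 other core proteins 9 were higher and 7 lower at 24 h in the injured cortex, and 13 were higher and 3 lower at 72 h. Their median was 0.03 at 24 h and 0.60 at 72 h, against 0.01 and 0.06 over all genes. Sdc1, a cell-surface syndecan, rose by 3.83 ± 0.29 and was at 4.14 ± 0.39 at 72 h. Sdc4, another syndecan, was at 1.67 ± 0.15 and 1.81 ± 0.21, and Hspg2, which encodes the basement membrane proteoglycan perlecan, at 1.30 ± 0.13 and 2.05 ± 0.18. Cspg4, the NG2 proteoglycan of oligodendrocyte precursors and pericytes, fell and then rose like Ptprz1 (-0.42 ± 0.09 and 0.62 ± 0.14).

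Of 14 other genes for link proteins and for hyaluronan synthesis, binding or breakdown, 7 were higher and 1 lower at 24 h, and 6 and 1 at 72 h. Cd44, the main hyaluronan receptor, stood at 5.21 ± 0.18 and 5.54 ± 0.23. Ugdh, which makes the sugar precursor for both hyaluronan and chondroitin sulfate, was at 0.49 ± 0.06 and 1.02 ± 0.09. Cemip, which takes part in hyaluronan breakdown, was lower at both times (-0.79 ± 0.08 and -0.96 ± 0.12). The median of the list was 0.33 and 0.57.

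Of 20 tested genes for chondroitin sulfate synthesis 6 were higher and 5 lower at 24 h, and 6 and 4 at 72 h, with medians of 0.05 and -0.03. Since 43% and 48.5% of all genes were called, these counts say little about the list. Chst11, a 4-O-sulfotransferase, was at 0.88 ± 0.07 and 0.69 ± 0.11, and Chsy1, a chain polymerase, at 0.52 ± 0.09 and 0.83 ± 0.13. Fam20b, a xylose kinase of the linker region, was lower (-0.41 ± 0.05 and -0.48 ± 0.08). Of 8 genes for lectican-cleaving proteases and their inhibitor 4 were higher and 1 lower at each time. Adamts9 was at 3.75 ± 0.16 and 2.92 ± 0.22, Adamts1 at 3.35 ± 0.15 and 2.30 ± 0.20, and Adamts4 at 1.20 ± 0.14 and 0.93 ± 0.21. Adamts1 and Adamts9 were lower at 72 h than at 24 h by test.

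Of 16 receptors and ligands 5 were higher and 7 lower at 24 h, and 6 and 5 at 72 h. Itgb1, the integrin beta subunit shared by tenascin-C receptors, was at 0.84 ± 0.09 and 1.72 ± 0.14. Rtn4r, the Nogo receptor, which binds chondroitin sulfate, was lower (-0.77 ± 0.09 and -1.16 ± 0.14). In the contralateral cortex Ptn was the only gene of these 5 lists called, lower at 24 h (2.1% of all genes called at 24 h and 0.26% at 72 h).

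**Figure D5:**
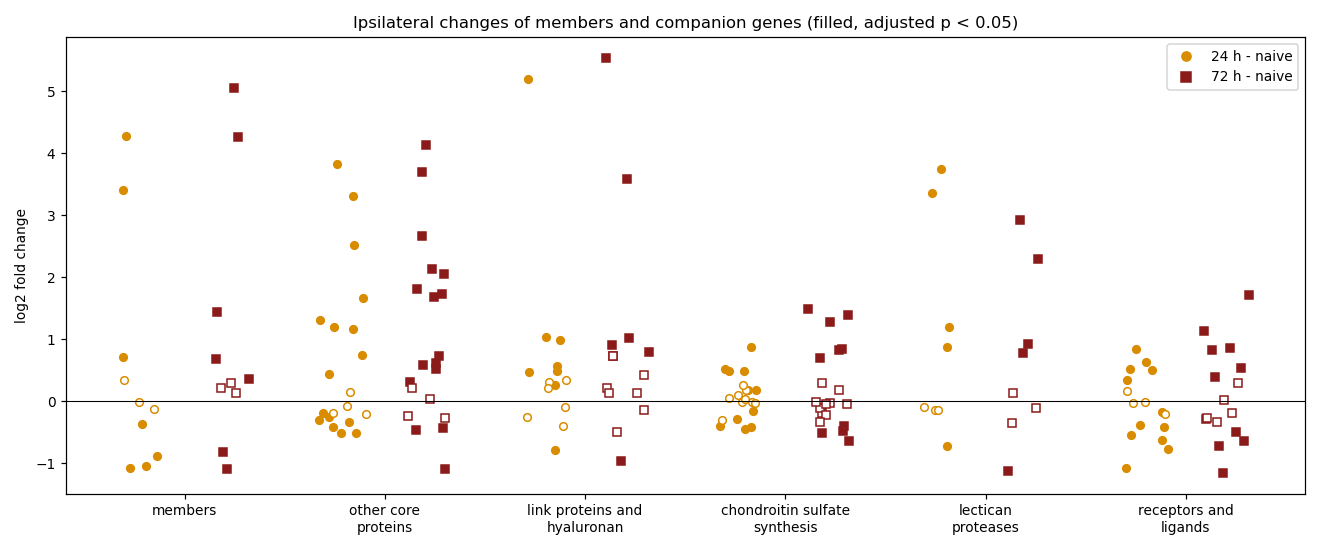
Log2 fold changes against naive in the ipsilateral cortex at 24 h (circles) and 72 h (squares) for the 10 genes and the 5 companion lists; each point is 1 gene and filled points passed an adjusted p of 0.05. The list of other core proteins, 20 genes, has 9 higher and 7 lower at 24 h and 13 higher and 3 lower at 72 h, with 43% and 48.5% of all genes called.

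Markers of cell types moved in the same libraries, where 43% of all genes were called at 24 h and 48.5% at 72 h. A marker count near these shares says little about its list. Summed markers of oligodendrocyte precursors stood at 157.0 to 204.6 CPM in naive ipsilateral libraries, 129.7 to 183.3 at 24 h and 242.6 to 469.8 at 72 h. Of these 6 markers 2 were higher and 4 lower at 24 h and 6 of 6 were higher at 72 h; Cspg4 is in both lists. Astrocyte markers (6) had 2 higher and 3 lower at 24 h and 3 higher and 1 lower at 72 h, with sums of 2992 to 5887 CPM in naive, 3361 to 4973 at 24 h and 2227 to 7333 at 72 h. Macrophage markers (6) rose for 5 and 6 genes, from 116.8 to 160.6 CPM in naive to 151.8 to 376.5 and 314.1 to 1599. Fibroblast markers (6) had 2 higher and 1 lower at 24 h and 4 higher at 72 h, with sums of 61.4 to 334.5, 62.8 to 511.4 and 144.6 to 1273 CPM.

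Endothelial markers (4) were higher for 2 and 3 genes, oligodendrocyte markers (4) for 1 and 2, and red cell markers (3) for 3 and 3, with none lower. Of 6 general neuron markers 1 was lower at 24 h, and 3 were lower and 1 higher at 72 h, with sums of 5891 to 6829 CPM in naive libraries (median 6329), 5276 to 6771 at 24 h (median 6114) and 2807 to 13410 at 72 h (median 4463, with LF3 the highest). No marker of these lists was at 0 in every library of a group. The part of these shifts in the members' values was not tested.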

How the data were processed

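Polyadenylated RNA of each punch was sequenced. The authors deposited raw counts per gene and library. HISAT2 2.0.5 and the mm10 build were used per the submitters' processing notes, while no source used here gives the counter, annotation or strand setting. Total counts were 10.6 M to 26.4 M per library (median 16.3 M). Identifiers without a matched symbol (123 of 54532) held 0.0615% of counts and stayed in the fits. The 10 members and the gene lists were chosen with earlier results of these data known.

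Counts were fitted with edgeR 4.0.16 (filterByExpr, TMM, quasi-likelihood test) with sex-by-time groups and the labelled batch as terms, separately for 43 ipsilateral libraries (19126 genes) and 44 contralateral ones (18436 genes). Contrasts weighted females and males equally. Side differences were fitted on 86 libraries of 43 mice (19946 genes) with the animal as a block, since the labels tie both punches to 1 mouse. The Benjamini-Hochberg adjustment ran over all genes of a fit, and an adjusted p under 0.05 was a call. In data simulated for the ipsilateral 24 h comparison (18678 genes), 62.5% of genes changed 1.5-fold, 92.1% of those changed 2-fold and 100% of those changed 4-fold were called, and 5.88% of calls were false. Only 67, 67 and 66 genes were changed there, and no batch or RNA quality difference was put in. In the data 43% of genes were called in that comparison, so these rates need not carry over.

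All 10 members are named. Of each companion list the 3 genes with the smallest p at 24 h are named, plus genes set beside a member, and for likeness the 2 genes with the highest r. The alternatives were DESeq2 1.42.0, RLE size factors, no batch term, no filter, each sex and batch alone, no animal block, leaving out PF1, and leaving out each library in turn. Replicates are separate mice. No library pair was as close as sampling noise (lowest chi-square per gene 2.64).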

Additional observations from a re-analysis of the deposited data

Results flagged for a closer look

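In 120 groups of 6 to 9 libraries (each gene, side, time and sex), the highest or lowest library stood far from its nearest neighbour in 31, where chance gives about 1 in 20. Values are in CPM, with the nearest other library in brackets.

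LF3, a female at 72 h, gave 9 of these. On its contralateral side Bcan was at 409.0 (284.5), Vcan at 4.24 (16.1), Cspg5 at 821.4 (358.5), Ptprz1 at 74.7 (224.4) and Tnr at 49.2 (178.7). On its ipsilateral side Bcan was at 53.9 (128.8), Cspg5 at 92.7 (180.2), Ptprz1 at 172.6 (280.1) and Tnr at 96.1 (194.5). LM2, a male at 72 h, had contralateral Vcan at 4.95 (16.2), Cspg5 at 462.8 (355.6), Ptprz1 at 107.2 (220.8) and Tnr at 108.3 (179.4). The naive female KF3 had Vcan at 5.96 (17.3), Ptprz1 at 75.9 (204.5) and Hapln1 at 7.47 (22.0) in the ipsilateral library, and Vcan at 8.52 (17.3) and Ptprz1 at 126.6 (217.0) in the contralateral one. The naive male KM3 had ipsilateral Ptprz1 at 128.1 (210.9). The length slopes of LF3, the contralateral library of LM2 and the ipsilateral libraries of KF3 and KM3 were under -0.15, and their part in these values was not tested.

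The other 12 values came from other animals. Among their libraries, the contralateral ones of CM1 (0.256) and QF1 (0.172) had the highest length slopes of batches A and B. The part of these slopes in the values was not tested. QF1, a female at 24 h, had contralateral Bcan at 115.3 (216.8), Ncan at 401.7 (289.2) and Vcan at 37.2 (24.1), and ipsilateral Ptprz1 at 108.1 (160.2). The naive male CM1 had contralateral Acan at 1.69 (4.54) and Ncan at 183.0 (277.7), and the naive female CF2 had contralateral Acan at 2.92 (4.29). Bcan was at 98.8 (118.7) in the ipsilateral library of FM2, a male at 24 h. Ncan was at 342.2 (303.0) in the contralateral library of TF2, a female at 72 h. Ptprz1 was at 250.5 (322.6) in the ipsilateral library of TM2, a male at 72 h. Has2 had no read in the contralateral library of HM2, a male at 24 h (0 CPM against 0.196), and stood at 0.806 (0.331) in that of PM2, a male at 72 h.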

How the results depend on the processing

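Of 1069 tested values of single genes over the alternatives, 1031 kept their side of the threshold, 21 lost a call, 17 gained one and 0 reversed. Direction was compared only for values called in the main fit or in the alternative, so uncalled values may have changed sign. The count of called members at 24 h in the ipsilateral cortex was 4 in batch B alone against 7 in all batches. Of all genes, 4297 of 18713 were called in batch B alone and 8216 of 19126 in all batches. In the contralateral cortex at 24 h the count was 2 without the 5 animals of low slope (875 of 18980 genes called). It was 1 with the slope as a covariate (1104 of 18436 genes), against 0 (388 of 18436 genes). Of 45 pairs of members, 2 varied together ipsilaterally, 21 contralaterally, 4 ipsilaterally without those animals and 12 contralaterally without them. The cause was not tested. Both slope repeats were chosen after the data were seen. Leaving out each of 87 libraries in turn gave 7 to 8 called members at 24 h, 7 to 8 at 72 h, 5 to 7 between the times and 0 to 0 in the contralateral and sex comparisons, and changed 16 of 3372 values. Without the animal as a replicate block the pairing gave 0, 7, 8 and 6 called members for the side difference in naive mice, at 24 h, at 72 h and between the times, against 0, 7, 9 and 6. Of all 19946 genes, 0, 8345, 11433 and 5827 were called without the block, against 0, 9517, 12305 and 7053. The member lost was Tnr at 72 h (0.20, adjusted p = 0.0837 in edgeR), and between the times Tnr was lost (0.25, adjusted p = 0.191) and Has2 gained (1.34, adjusted p = 0.0217). Has2 held few reads, which limits its folds.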
